A study of Homo sapiens with 7 samples.

Results

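The transcripts of the mitochondrial genome in K562 cells were taken as every row of the count table whose gene name begins with MT-. There were 37 such genes among 57773 rows: 13 mRNAs, 2 ribosomal RNAs (rRNAs) and 22 transfer RNAs (tRNAs). No measured value entered that choice. By strand, 28 are transcribed as heavy-strand transcripts and 9, the mRNA MT-ND6 and 8 tRNAs, as light-strand transcripts.

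Human mitochondrial DNA is a small circle that is copied into long RNAs from both strands by the polymerase POLRMT with TFAM and TFB2M. Most mRNAs and both rRNAs are separated by tRNAs, which are cut out by RNase P and by the RNase Z enzyme ELAC2. Most of the mRNAs then receive short poly-A tails, the light-strand MT-ND6 being the known exception in human cells. The mRNAs encode core subunits of respiratory complexes I, III and IV and of ATP synthase (complex V). All other subunits, and the whole of complex II, come from nuclear genes.

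K562 is an established human chronic myelogenous leukemia line with erythroid features, and LSD1 is a histone demethylase. In every group LSD1 carried a C-terminal GFP tag. Parental cells carried wtLSD1-GFP homozygously and gave 3 libraries. Edited lines 1 and 2 were heterozygous, with Y391K-LSD1-GFP on 2 alleles and wtLSD1-GFP on 1 allele, and gave 2 libraries each. The design text calls Y391K a gain of function. Whether a line is 1 clone and whether its libraries were separate cultures were points not given in the sources used here, so p-values measure only the spread between these samples, which may be technical. The RNA was poly-A selected and read in pairs of 150 cycles, with RNA integrity scores above 8.9 in all samples.

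Library totals were 35841302 to 72577827 counts, so that 3 counts correspond to 0.0413 to 0.0837 CPM, counts scaled to the library total. All 10 erythroid and leukemia markers of K562 stood at 1 CPM or more in all 7 libraries. Of 12 markers of other blood cells, 10 stayed under 1 CPM in every library, and LYZ stood at 3.76 to 28.7 CPM. The 12 summed to 21.8 to 30.0 CPM in parental and 4.90 to 23.5 CPM in edited libraries, and LYZ was lower in line 1 (log2 fold change -2.48, adjusted p 0.00173 by edgeR). Their part in the results was not tested. Both genes that mark the mitochondrial set, MT-ND4 and MT-CO1, had at least 22995 and 14056 counts in every library. In bulk RNA, fewer mitochondria or mitochondrial genomes per cell and less RNA from each cannot be told apart.

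Sequences come from GENCODE release 29 transcripts (GRCh38), read by gene name and written as DNA, 5′ to 3′. The first set is shown because 2 pairs of mRNAs share one RNA and overlap: MT-ATP8 and MT-ATP6 share 46 bases, and MT-ND4L and MT-ND4 share 7. Capitals mark the shared bases, with 20 bases on each side.
MT-ATP8/MT-ATP6: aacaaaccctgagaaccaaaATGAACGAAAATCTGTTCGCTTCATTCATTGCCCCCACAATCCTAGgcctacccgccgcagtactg
MT-ND4L/MT-ND4: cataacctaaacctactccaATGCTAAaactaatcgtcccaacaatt
The overlap makes up 22.2% of the 207 bases of MT-ATP8 and 6.75% of the 681 bases of MT-ATP6. The rule for assigning reads in it was not given in the sources used here.

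The second set shows why the poly-A tail matters for these mRNAs. In 6 of the 13, MT-ND1, MT-ND2, MT-CO3, MT-ND3, MT-ND4 and MT-CYB, the encoded RNA ends inside the stop codon, which the tail completes in the textbook account. The last 18 bases of 3 of them, and of MT-ATP6 with a whole stop codon for comparison, are given with the encoded bases of the stop codon in capitals.
MT-ND4: ttaccgggttttcctctT
MT-CYB: aaatactcaaatgggccT
MT-ND1: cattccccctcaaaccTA
MT-ATP6: ctgcacgacaacacaTAA

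The third set shows tRNAs, the most counted pair on each strand, with the anticodon in capitals. MT-TV (valine) and MT-TW (tryptophan) lie on the heavy-strand transcript, MT-TE (glutamate) and MT-TQ (glutamine) on the light-strand transcript.
MT-TV: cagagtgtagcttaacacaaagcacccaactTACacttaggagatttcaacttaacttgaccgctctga
MT-TW: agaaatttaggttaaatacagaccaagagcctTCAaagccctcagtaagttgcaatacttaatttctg
MT-TE: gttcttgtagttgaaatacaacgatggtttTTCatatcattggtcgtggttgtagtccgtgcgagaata
MT-TQ: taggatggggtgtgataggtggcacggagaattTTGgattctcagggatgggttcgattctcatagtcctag
At 69, 68, 69 and 72 bases they are shorter than a single read of 150 cycles.

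Mitochondrial transcripts held a small share of every library. All 37 together took 0.363%, 0.394% and 0.283% of counts in parental 1, 2 and 3. They took 0.367% and 0.489% in line 1, and 0.510% and 0.436% in line 2. Parental 3 had the lowest share of the 7 libraries, and line 1 replicate 1 lay between parental 1 and parental 2. The widest 95% Wilson interval of a share reached 0.00215 percentage points to either side, counting error only.

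The mRNAs and rRNAs did not follow the same order across libraries. The 13 mRNAs took 0.234%, 0.277% and 0.147% of counts in parental 1 to 3, against 0.263% and 0.374% for line 1 and 0.352% and 0.334% for line 2. Both rRNAs together took 0.127%, 0.115% and 0.135% in parental cells, with 0.103% and 0.113% for line 1, then 0.155% and 0.1001% for line 2. Parental 3 was thus the lowest library for mRNAs and the second highest for rRNAs.

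The number of rRNA counts per mRNA count was 0.545, 0.415 and 0.918 in parental 1 to 3. In the edited libraries it was 0.391 and 0.303 for line 1 and 0.441 and 0.2997 for line 2. The ratio was highest in parental 3, and the groups overlapped, since line 2 replicate 1 lay above parental 2. The RNA was poly-A selected. Counts of rRNAs, tRNAs and MT-ND6 beside other mRNAs may therefore not follow their levels in the cells, which was not tested.

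**Figure D1:**
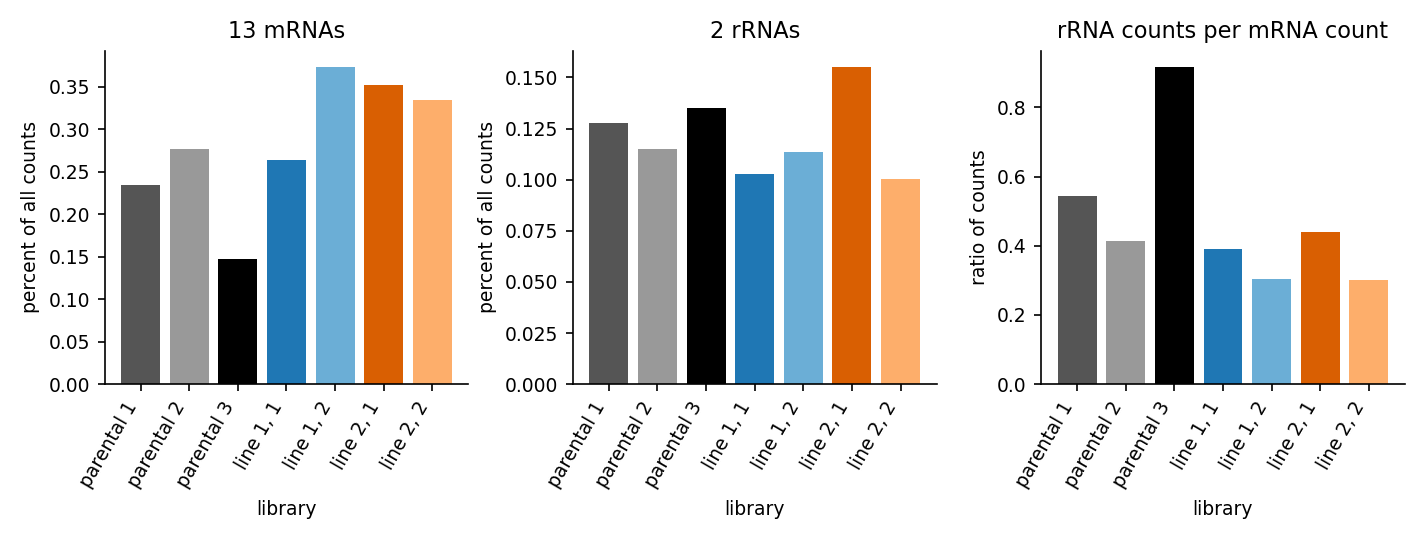
Bars give, for each of the 7 libraries, the percent of all counts on the 13 mRNAs, the percent on the 2 rRNAs, and rRNA counts per mRNA count, each 1 value a library with no error bar. Parental 3 has the shortest mRNA bar, at 0.147%, and the tallest ratio, at 0.918.

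Levels of different genes were compared per length, in the FPKM that the authors deposited. Among parental libraries MT-ATP8 had the highest mean, 444 ± 187 FPKM (SD, n = 3), followed by MT-RNR2 at 420.4 ± 41.98 and MT-ND4 at 299.6 ± 34.4 FPKM (SD, n = 3). MT-ND6 was lowest at 24.0 ± 13.1 FPKM (SD, n = 3). Of the 14 pairs of neighbours in the parental order, 13 had libraries that overlapped; the gap between MT-RNR2 and MT-ND4 was the exception. In edited cells the order began with MT-ATP8 at 787 ± 202 FPKM, MT-ND4 at 411 ± 62.2, MT-ND4L at 400.1 ± 65.5 and MT-RNR2 at 382 ± 67.1 FPKM (SD, n = 4). There 12 of 14 neighbours overlapped. The rank of short genes depended on the scale: by counts per kilobase MT-ATP8 was eighth, at 196.5 CPM per kilobase, and MT-RNR2 first at 630.3 CPM per kilobase.

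The subunits of complex I, the NADH dehydrogenase that takes electrons from NADH, came first by number, with 7 of the 13 mRNAs. MT-ND4 stood at 624, 733 and 626 CPM in parental 1 to 3, at 775 and 1096 CPM in line 1, and at 893 and 812 CPM in line 2. All 4 edited libraries lay above all 3 parental libraries, and parental 3 did not stand apart. The log2 fold change fitted by edgeR, 0.44 (SE 0.15), had a quasi-likelihood p of 0.333 after Benjamini-Hochberg adjustment over 18160 genes.

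MT-ND4L, whose reading frame runs into MT-ND4 on the same RNA, stood at 70.7, 84.9 and 61.9 CPM in parental 1 to 3, 97.9 and 131 CPM in line 1, and 105 and 109.9 CPM in line 2. These groups did not overlap either. Its log2 fold change of 0.61 (SE 0.15) had the smallest adjusted p of all mitochondrial genes in this comparison, 0.215 by edgeR.

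MT-ND2, a membrane subunit, stood at 159, 189 and 108 CPM in parental 1 to 3, 219 and 309.7 CPM in line 1, and 217 and 250.3 CPM in line 2. Again no edited library reached down to a parental one. The log2 fold change was 0.71 (SE 0.21; adjusted p by edgeR 0.276).

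MT-ND5, the largest subunit encoded in the mitochondrion, stood at 213, 249 and 106 CPM in parental 1 to 3, 235 and 336 CPM in line 1, and 346 and 349 CPM in line 2. Line 1 replicate 1 fell between the first and the second parental library. MT-ND1 had 136, 143 and 51.7 CPM in the parental libraries and between 118 and 189 CPM in edited cells. MT-ND3 had 19.0, 22.8 and 6.56 CPM in the parental libraries and between 19.4 and 27.0 CPM in edited cells. Parental 1 and 2 lay within the edited range for MT-ND1, and for MT-ND3 parental 2 lay within it and parental 1 just below. Parental 3 was the lowest library for both. Their log2 fold changes were 0.74 (SE 0.28), 0.58 (SE 0.33) and 0.58 (SE 0.37), with adjusted p of 0.368, 0.522 and 0.560 by edgeR.

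MT-ND6, the one light-strand mRNA, followed none of these orders. It stood at 28.6, 63.6 and 31.5 CPM in parental 1 to 3, 29.9 and 61.4 CPM in line 1, and 48.9 and 64.7 CPM in line 2. Parental 1, parental 3 and line 1 replicate 1 made up the low libraries, and the groups overlapped. MT-ND6 lies opposite heavy-strand RNA, and with the strand setting of the counting unknown, reads from the 2 strands cannot be told apart. Per count of its heavy-strand neighbour MT-ND5 it gave 0.134, 0.256 and 0.297 in parental cells and 0.127, 0.183, 0.141 and 0.185 in edited cells. The log2 fold change was 0.31 (SE 0.34; adjusted p by edgeR 0.746).

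MT-CYB, cytochrome b, is the single mitochondrially encoded subunit of complex III. It stood at 99.1, 113 and 50.9 CPM in parental 1 to 3, 123 and 169 CPM in line 1, and 167 and 177 CPM in line 2. The groups did not overlap, and its log2 fold change of 0.86 (SE 0.26) was the largest among the mRNAs. It did not pass over all genes, with an adjusted p of 0.287 by edgeR.

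The 3 subunits of complex IV, cytochrome c oxidase, hold its metal centres and core. MT-CO1 stood at 381, 468 and 233 CPM in parental 1 to 3, 399 and 575 CPM in line 1, and 596 and 595 CPM in line 2. MT-CO2 stood at 199, 240.8 and 164 CPM in parental 1 to 3, against 239.7 and 289 CPM in line 1 and 283 and 273 CPM in line 2. MT-CO3 had 128, 162 and 74.6 CPM in the parental libraries, against 128 and 187 CPM for line 1 and 183 CPM in both libraries of line 2. In each, line 1 replicate 1 lay below parental 2, so the groups overlapped by that library. The log2 fold changes were 0.59 (SE 0.24), 0.43 (SE 0.15) and 0.48 (SE 0.25), with adjusted p of 0.401, 0.333 and 0.485 by edgeR.

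ATP synthase takes 2 membrane subunits from the mitochondrial genome. MT-ATP6, which lines the proton channel, stood at 170.1, 193.3 and 84.3 CPM in parental 1 to 3, 193.4 and 293 CPM in line 1, and 257 and 247 CPM in line 2. MT-ATP8 stood at 46.9, 52.3 and 22.5 CPM in parental 1 to 3, 55.2 and 84.4 CPM in line 1, and 76.1 and 69.1 CPM in line 2. The groups did not overlap for either gene, though parental 2 and line 1 replicate 1 were close together for MT-ATP6. The log2 fold changes were 0.73 (SE 0.27) and 0.81 (SE 0.28), with adjusted p of 0.363 and 0.333 by edgeR.

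**Figure D2:**
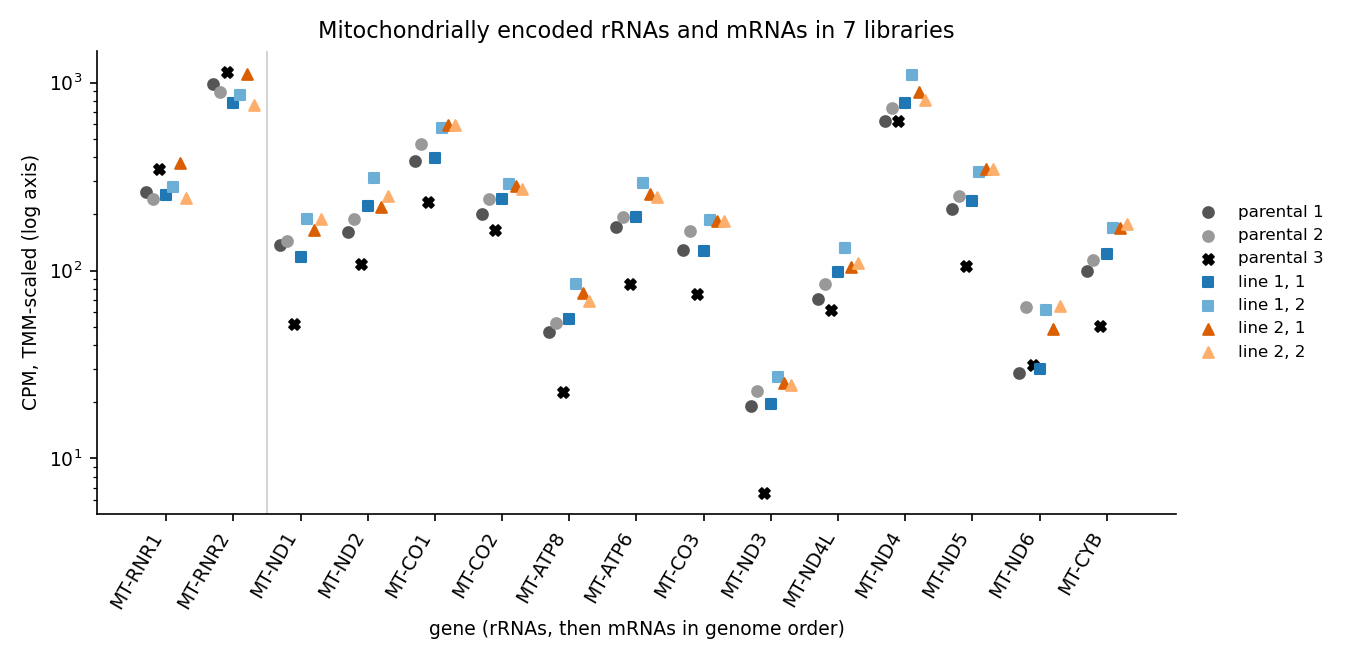
Points give the TMM-scaled CPM (log axis) of the 2 rRNAs and 13 mRNAs in each of the 7 libraries, with no error bar because each point is 1 library. Parental 3 (cross) lies below every other library for 11 of the 13 mRNAs and for neither rRNA.

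Over the 13 mRNAs, 13 had a positive log2 fold change in edited against parental cells, where 49.8% of all tested genes were positive. The median was 0.59, with a range of 0.31 to 0.86, and the median of all 18160 genes was -0.002. By edgeR's quasi-likelihood test 0 were called at an adjusted p under 0.05, against a background of 0.182% of genes called. At an unadjusted p under 0.05 there were 9, all higher in edited cells, against 5.66% of all genes called higher at that level. DESeq2's Wald test and limma-voom also called 0 of the 13. In 6 of the 13 (MT-ND2, MT-ND4, MT-ND4L, MT-ATP6, MT-ATP8 and MT-CYB) all edited libraries lay above all parental libraries, as they did in 6.08% of tested genes. Without parental 3 the log2 fold change was 0.22 for MT-ND3, 0.26 for MT-ND1 and 0.24 for MT-CO3, against 0.58, 0.58 and 0.48 with it. MT-ND6 ran from 0.11 without parental 1 to 0.77 without parental 2. Without parental 3 the median over the 13 was 0.42, with 0 called. The 6 with every edited library above all parental ones necessarily had them above parental 1 and 2. No other mRNA joined these 6, while the share of tested genes was 13.2%.

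In the authors' deposited table without shrinkage, 13 of the 13 log2 fold changes were positive with a median of 0.60, and 0 had an adjusted p under 0.05. The smallest adjusted p in the authors' deposited table was 0.0538, for MT-ND4L.

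The 2 rRNAs did not share this direction. MT-RNR1, the small-subunit 12S rRNA, had 261, 239 and 347 CPM in parental 1 to 3, 254 and 279 CPM in line 1, and 374 and 244 CPM in line 2. MT-RNR2, the large-subunit 16S rRNA, had 979, 887 and 1141 CPM in parental cells, 776 and 857 CPM in line 1, and 1109 and 758 CPM in line 2. For both, parental 3 and line 2 replicate 1 were the high libraries and the groups overlapped. The log2 fold changes were 0.03 (SE 0.19) and -0.20 (SE 0.17), with adjusted p of 0.970 and 0.670 by edgeR and 95% intervals of -0.40 to 0.46 and -0.57 to 0.18. The sign of MT-RNR1 turned when parental 1, parental 2 or line 2 replicate 1 was left out.

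The rRNAs are made on one RNA with MT-TV between them, but their ratio differed between libraries. MT-RNR2 gave 3.75, 3.71 and 3.29 counts per MT-RNR1 count in parental 1 to 3, against 3.06 and 3.07 for line 1 and 2.97 and 3.11 for line 2. All parental libraries lay above all edited ones. This ratio was singled out after its values were seen and was not tested. With the counts of the nuclear MTRNR2L genes added to MT-RNR2, the ratios were 4.49, 4.43 and 4.07 in parental cells and 3.64, 3.73, 3.59 and 3.77 in edited cells.

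**Figure D3:**
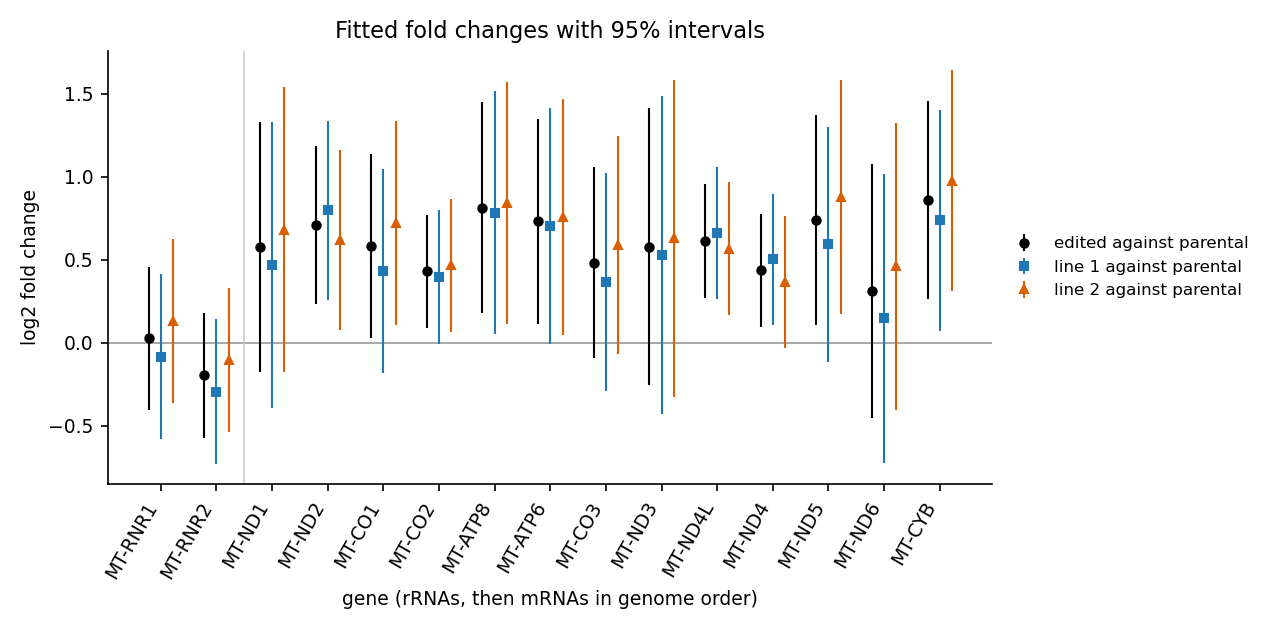
Points give the fitted log2 fold changes of edited cells, line 1 and line 2 against parental cells for 2 rRNAs and 13 mRNAs, and bars their 95% intervals, not adjusted for many genes. All 13 mRNA points lie above 0 in each comparison, while for edited cells the rRNA points stand at 0.03 and -0.20.

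The lines were then fitted apart, both against the same 3 parental libraries, which the comparisons share. In line 1, 13 of 13 mRNAs had a positive log2 fold change, with a median of 0.53. Leaving out 1 library took that median to 0.27 with 12 of 13 positive (line 1 replicate 2) or to 0.33 (parental 3). Of all genes 49.0% were positive. None passed, against 1.75% of all genes; 5 had an unadjusted p under 0.05, where 5.4% of all genes were higher at that level, and the smallest adjusted p was 0.122, for MT-ND4L, by edgeR. In line 2, 13 of 13 were positive with a median of 0.63, against 49.2% of all genes positive. None passed, against 5.82% of all genes, and 8 had an unadjusted p under 0.05, where 8.65% of all genes were higher at that level. Its smallest adjusted p was 0.0931, for MT-CYB, with a log2 fold change of 0.98 (SE 0.29) by edgeR. The calls per line moved with the method. DESeq2's Wald test called MT-ND2 in line 1 and MT-CYB and MT-ND5 in line 2, and limma-voom called 0. By edgeR, 6 and 9 mRNAs were called with no filter on low counts, and 4 and 8 with the replicate number as a block. Leaving out parental 3 called MT-CYB in line 2 (adjusted p 0.0317 by edgeR).

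Line 2 against line 1 does not use the parental means. Of the 13 mRNAs 10 had a positive log2 fold change, as did 50.6% of all genes, with a median of 0.10, and none passed, against 6.54% of all genes, with 0 at an unadjusted p under 0.05. DESeq2's Wald test and limma-voom called 0 as well. The negative ones were MT-ND2 at -0.18, MT-ND4 at -0.14 and MT-ND4L at -0.10. The direction depended on which line 1 library was kept. Without line 1 replicate 1, 3 of 13 were positive with a median of -0.11. Without line 1 replicate 2, all 13 were positive with a median of 0.40.

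The parental libraries are taken one by one next. Parental 1 and 2 differed by at most 1.26-fold in 12 of the 13 mRNAs, and by 2.22-fold in MT-ND6. Parental 3 was the lowest of the 7 libraries for 11 of 13 mRNAs, where it was the lowest, ties not counted, for 22.8% of all tested genes. The median log2 ratio of parental 3 to the mean of parental 1 and 2 was -0.96 for mRNAs, 0.38 for the 2 rRNAs and -0.02 for all tested genes.

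The mRNAs of parental 3 were not low in equal measure. The log2 ratio was -1.67 for MT-ND3 and -1.43 for MT-ND1, -1.14 for MT-ATP8, -1.13 for MT-ND5, -1.11 for MT-ATP6, -1.06 for MT-CYB and -0.12 for MT-ND4. MT-ND4L at -0.33 and MT-CO2 at -0.42 were also among the least low. Neighbours on one RNA lay close together, MT-ATP8 beside MT-ATP6 and MT-ND4L beside MT-ND4. MT-ND3, which lies next to MT-ND4L with a tRNA between them, was at the other end of the range. Mature mRNAs with a stop codon encoded in part had a median of -1.01 (n = 6) and those with a whole stop codon -0.87 (n = 7), with ranges that overlapped.

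As shares of mitochondrial mRNA counts, MT-ND4 made up 38.6% in parental 3, against 27.4% and 27.0% in parental 1 and 2 and 24.3% to 29.4% in the edited libraries. MT-ND3 made up 0.405% in parental 3, against 0.836% and 0.838% in parental 1 and 2 and 0.721% to 0.748% in edited libraries. For both, parental 3 lay outside the range of the other 6 libraries. For the mean of the edited libraries, the log2 ratio to the mean share in parental 1 and 2 ran from -0.22 for MT-ND6 to 0.19 for MT-CYB. For parental 3, a single library, it ran from -1.05 for MT-ND3 to 0.51 for MT-ND4. MT-ND6 and MT-ND2 lay further from 0 in edited cells (-0.22 and 0.13) than in parental 3 (0.11 and -0.07).

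**Figure D4:**
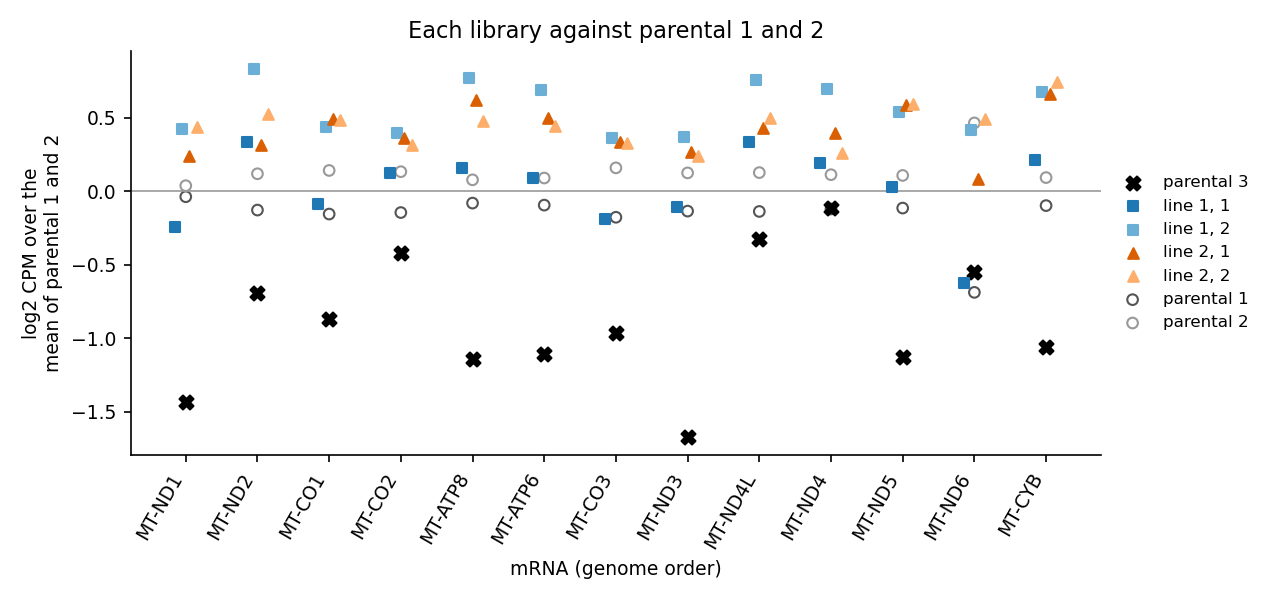
Points give log2 CPM of each library over the mean of parental 1 and 2 for the 13 mRNAs in genome order, 1 point a library. Parental 3 runs from -1.67 for MT-ND3 to -0.12 for MT-ND4, and line 2 lies above 0 throughout.

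Other features of parental 3 are given beside this. It had the most counts, 72577827. A list of 8 stress and sterol genes was taken because an earlier analysis of these data had found them high in parental 3. That they were the highest of 7 there in 8 of 8 follows from this choice. Of 18160 tested genes, 3998 were highest in parental 3. The list summed to 13121 CPM in parental 3, against 1493 to 1715 CPM in parental 1 and 2. In edited libraries it summed to 1310 to 4523 CPM. Across tested genes its Pearson correlations with parental 1 and 2 were 0.967 and 0.965, against 0.988 between those. The part of these features in the low mRNA levels was not tested.

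The overlapping pairs are given by the ratio of their counts, chosen with its values known and not tested. MT-ATP8 counts were 27.6%, 27.1% and 26.6% of MT-ATP6 counts in parental 1 to 3 and 28.5%, 28.8%, 29.7% and 27.9% in edited libraries. MT-ND4L counts were 11.3%, 11.6% and 9.90% of MT-ND4 counts in parental cells and 12.6%, 11.98%, 11.7% and 13.5% in edited libraries. In both pairs every edited ratio lay above every parental ratio, the nearest being 27.9% and 27.6% for MT-ATP8 and 11.7% and 11.6% for MT-ND4L. MT-ND3, on an RNA of its own, was 3.05%, 3.11% and 1.05% of MT-ND4 in parental cells and 2.46% to 3.04% in edited libraries. MT-CO2 was 51.4% to 70.4% of MT-CO1 in parental cells and 45.8% to 60.1% in edited libraries. MT-ND1 was 4.53% to 16.2% of MT-RNR2 in parental cells and 14.9% to 24.9% in edited libraries. For MT-ND3, MT-CO2 and MT-ND1 the ranges of the groups overlapped. How often such ratios separate the groups over all genes was not examined.

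The tRNAs had few counts. All 22 together had 542, 1076 and 490 counts in parental 1 to 3, against 477 and 678 for line 1 and 1639 and 648 for line 2. That made 4.47 to 7.11 tRNA counts per 1000 mRNA counts, with parental 3 at 4.59. Deposited FPKM for tRNAs are not used, since genes shorter than a read received values out of proportion to their counts: MT-TV was listed at 10020 FPKM in parental 1 from 103 counts.

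On the heavy-strand transcript, MT-TV, between the rRNAs, had 103, 176 and 75 counts in parental 1 to 3, against 68 and 112 for line 1 and 246 and 32 for line 2. MT-TW had 72, 160 and 20 counts in parental cells, 61 and 67 in line 1, and 157 and 70 in line 2. MT-TM, the methionine tRNA that precedes MT-ND2, had 45, 76 and 86 counts in parental cells, and its CPM of 1.22, 1.36 and 1.30 showed no drop in parental 3. MT-TF, the phenylalanine tRNA ahead of MT-RNR1, had 33 to 122 counts over the 7 libraries. Apart from MT-TM, parental 3 was low in these, being the lowest of 7 in CPM for MT-TW and MT-TF.

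On the light-strand transcript, MT-TE had 33, 119 and 94 counts in parental 1 to 3, against 26 and 64 for line 1 and 160 and 31 for line 2. MT-TQ had 33, 85 and 40 counts in parental cells, 26 and 61 in line 1, and 129 and 84 in line 2. MT-TP, the proline tRNA, had 29, 51 and 20 counts in parental cells and 36 to 106 in edited libraries, and its CPM of 0.787, 0.915 and 0.303 in parental cells faced 0.890 to 1.48 in edited cells.

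Of the 22 tRNAs, 13 passed the filter on low counts: MT-TF, MT-TV, MT-TL1, MT-TI, MT-TQ, MT-TM, MT-TW, MT-TA, MT-TS1, MT-TD, MT-TS2, MT-TE and MT-TP. None passed the test in edited against parental cells by edgeR, against 0.182% of all genes. None had an unadjusted p under 0.05 by edgeR, against 2163 of 18160 genes. DESeq2 and limma-voom called 0. Log2 fold changes ran from -0.36 for MT-TD to 1.27 for MT-TA (SE 0.66, adjusted p 0.483 by edgeR). Of the 13, 10 were positive, against 49.8% of all genes. Parental 3 was the lowest of 7 libraries in 9 of these 13, where it was for 22.8% of all tested genes. The 9 that did not pass, such as MT-TN with 0 to 4 counts a library, had at most 42 counts in a library. In parental 3, 4 of them, MT-TN, MT-TC, MT-TK and MT-TL2, had 0 counts, which allows up to 0.0413 CPM. These zeros are not particular to parental 3: MT-TN, MT-TC and MT-TK had 0 counts elsewhere as well. MT-TL2 had at most 2 counts in any library.

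Nuclear copies of mitochondrial DNA can take reads from these genes. There were 188 rows named as such copies, of which 24 passed the filter. None of the 24 passed the test in any of the 4 comparisons. Of all genes, 0.182% passed in edited cells, 1.75% in line 1, 5.82% in line 2 and 6.54% between the lines. Together the 188 copies raise the mitochondrial share to 0.312% in parental 3 and to 0.545% in line 2 replicate 1 when added. MTATP6P1 is 98.5% identical to MT-ATP6 over 681 bases and its counts equalled 17.97%, 15.6% and 19.8% of those of MT-ATP6 in parental 1 to 3, and 15.7% to 19.2% in edited libraries. MTND2P28, 98.4% identical to MT-ND2, had 2.49% to 3.27% of the counts of that gene. For MTRNR2L8, 93.0% identical to MT-RNR2 where aligned, the range was 11.0% to 13.7%, and for MTRNR2L12 5.19% to 6.99%. The percentage for MTATP6P1 ran from 15.6% to 19.8% over the libraries, and MT-ATP6 itself from 84.3 to 293 CPM. The 2 MTRNR2L genes had log2 fold changes of -0.20 and -0.29 in edited against parental cells, with adjusted p of 0.719 and 0.642 by edgeR. Whether the reads of MTATP6P1 or of any other of these copies came from the nuclear or the mitochondrial gene was not tested.

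The nuclear genes that run mitochondrial gene expression were described from lists chosen with earlier results known. In edited against parental cells, 0 of 9 transcription genes, 0 of 20 for mitochondrial DNA maintenance, 0 of 38 for RNA processing and stability, 0 of 22 aminoacyl-tRNA synthetases, 0 of 17 translation factors, 0 of 76 mitochondrial ribosomal proteins and 0 of 13 regulators passed by edgeR, against 0.182% of all genes. Medians of their log2 fold changes were 0.19, 0.13, 0.23, 0.14, 0.19, 0.19 and 0.02.

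Single genes passed in the lines, with at most 2 members of any of these lists called in a comparison, where 1.75% of all genes were called in line 1, 5.82% in line 2 and 6.54% between the lines. POLRMT, the mitochondrial RNA polymerase, stood at 146, 139 and 171 CPM in parental 1 to 3, 162 and 178 CPM in line 1, and 91.9 and 98.5 CPM in line 2. It was lower in line 2 than in parental cells (log2 fold change -0.67, adjusted p 0.0270 by edgeR) and lower than in line 1 (-0.84, adjusted p 0.0148). In the same line 2 libraries 13 of 13 mitochondrial mRNAs had a positive log2 fold change, of which none passed.

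TRMT10C, a protein subunit of mitochondrial RNase P, stood at 38.8, 39.7 and 37.2 CPM in parental 1 to 3, 55.6 and 66.0 CPM in line 1, and 53.9 and 73.3 CPM in line 2. It rose in line 2 (log2 fold change 0.72, adjusted p 0.0337 by edgeR), while in line 1 the log2 fold change was 0.66 with an adjusted p of 0.0938. GTPBP3, which modifies mitochondrial tRNAs, fell in line 2 (-0.82, adjusted p 0.0147). PPARGC1B, a coactivator of mitochondrial genes, rose in line 2 (0.55, adjusted p 0.0475). MRPS35 and MRPL4 are mitochondrial ribosomal proteins: MRPS35 fell in line 1 (-0.63, adjusted p 0.0410), and MRPL4 was lower in line 2 than in line 1 (-0.89, adjusted p 0.0365). In the 2 lists with no call, the most abundant members in edited against parental cells were SSBP1, which binds single-stranded mitochondrial DNA, at a log2 fold change of 0.19 (SE 0.14) and ATAD3A at 0.33 (SE 0.18), and the translation factors TUFM at 0.16 (SE 0.14) and MTIF2 at -0.17 (SE 0.14).

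The nuclear subunits of the respiratory complexes give the counterpart of the mitochondrial mRNAs. Of 77 nuclear subunits of complexes I to V, 0 passed in edited against parental cells by edgeR, against 0.182% of all genes. Of the 77, 63 had a positive log2 fold change, against 49.8% of all genes, and the median of the 77 was 0.25. By complex the nuclear medians were 0.26 for I, 0.27 for II, 0.31 for III, 0.26 for IV and 0.22 for V. The mitochondrial subunits of the same complexes stood at 0.58 (n = 7) for I, 0.86 (n = 1) for III, 0.48 (n = 3) for IV and 0.77 (n = 2) for V. Each line alone had 1 call among the 77, against 1.75% of all genes in line 1 and 5.82% in line 2: NDUFA3 higher in line 1 (log2 fold change 1.02, adjusted p 0.0332) and NDUFB2 higher in line 2 (0.73, adjusted p 0.0425), both subunits of complex I. Between the lines 3 of the 77 were called, against 6.54% of all genes. Against line 1, line 2 was lower in the complex I subunits NDUFB7 (-0.84, adjusted p 0.0450) and NDUFS7 (-1.07, adjusted p 0.0473) and higher in ATP5O of ATP synthase (0.59, adjusted p 0.0391), all by edgeR. In the complexes with no call the most abundant nuclear subunits had log2 fold changes in edited against parental cells of 0.10 (SDHA) and 0.31 (SDHB) for complex II, 0.09 (UQCRH) and -0.02 (UQCRB) for III, and 0.09 (COX7C) and 0.10 (COX4I1) for IV.

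**Figure D5:**
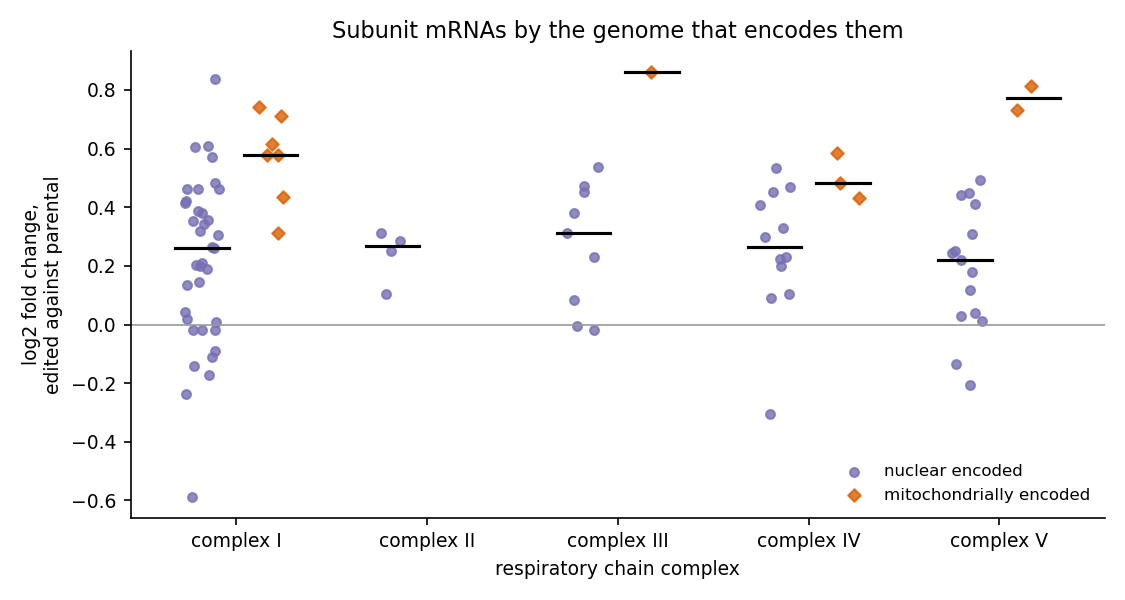
Points give the log2 fold change of edited against parental cells for each tested subunit mRNA of complexes I to V, nuclear and mitochondrially encoded apart, and black lines the medians. The mitochondrial medians of 0.48 to 0.86 lie above the nuclear medians of 0.22 to 0.31, and no point passed the test.

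In parental 3 the medians for the 2 genomes lay on opposite sides of 0. The median log2 ratio of parental 3 to the mean of parental 1 and 2 was 0.28 for the 77 nuclear subunits, 16 of which were below 0, and -0.96 for the 13 mitochondrial mRNAs, all of which were below 0. Nuclear subunits were the lowest of 7 libraries in parental 3 in 10 of 77, where 22.8% of tested genes were. The 9 mitochondrial transcription genes had a median of -0.26 there, and 6 were lowest of 7. Edited libraries over the mean of parental 1 and 2 alone gave medians of 0.34 for the nuclear subunits and 0.40 for the mitochondrial mRNAs.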

How the data were processed

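Poly-A RNA libraries of K562 cells (3 parental, 2 of each edited line) were used. The submitters' processing notes name STAR 2.7.3a, Bowtie2 2.5.1, HTSeq 0.11.2, Cufflinks 2.2.1, cutadapt 2.5, FastQC 0.11.8, MultiQC 1.7 and DESeq2, and the builds hg19 and GRCh37. Their roles, order, strand setting and any filter on mitochondrial reads were not given in the sources used here. Raw counts and FPKM per gene were deposited by the authors, who also gave normalized counts per the file headers, a signal not used here. The authors' comparison tables hold log2 fold changes, p-values, adjusted p-values and a Wald statistic, a score not used here, per the file headers. FPKM of 114 repeated identifiers were summed.

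Counts were tested over the whole table with edgeR 4.0.16 in R 4.3.3 (filterByExpr, TMM, glmQLFit, glmQLFTest, Benjamini-Hochberg at 0.05), with 2 groups for edited against parental cells and 3 groups for the lines. The steps were tested on simulated data. The standard error is the log2 fold change over the square root of F. CPM use TMM-scaled totals, and shares use raw totals. Floors and intervals cover counting error only. Every mRNA and rRNA is named, tRNAs where they passed the filter, and of each nuclear list up to 4 members called in any comparison, otherwise the 2 with the highest mean CPM. Some genes that this rule or a marker list holds are not reported here. Members and lists were chosen with earlier results of these data known. Alternatives used DESeq2 1.42.0 and limma 3.58.1, FPKM with pseudocounts of 1 and 0.1, other scalings and filters, the replicate number as a block and each library left out. Genome order, strand and sequences came from GENCODE 29 on GRCh38, another build than the files', so no coordinates are given.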

Additional observations from a re-analysis of the deposited data

Results flagged for a closer look

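Among the 4 edited libraries, line 1 replicate 1 lay far below the others for 3 mRNAs of 36 quantities examined: MT-CO1 at 399 CPM, MT-CO3 at 128 CPM and MT-ND5 at 235 CPM. In each, the gap to the next library took up more of the group's range than Dixon's critical value for 4 samples allows. Chance flags about 1 in 20 such groups, and the quantities come from the same libraries. The other 3 edited libraries stood at 575 to 596 CPM for MT-CO1, 183 to 187 CPM for MT-CO3 and 336 to 349 CPM for MT-ND5.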

How the results depend on the processing

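Edited against parental cells called 0 mitochondrial genes under every alternative run, and all 13 mRNAs kept a positive sign, with medians from 0.40 (replicate block) to 0.82 (without parental 2). Calls in line 1 and line 2, 0 as reported, were 6 and 9 with no filter, 1 and 2 with DESeq2's Wald test, and 4 and 8 with the replicate block. With each library left out they were 0 in line 1 and 0 to 1 in line 2. The block was not used in the main fits because the labels do not say that a replicate number marks a shared batch. Same-numbered libraries had correlations of deviations from -0.097 to 0.302. With 2 libraries a line these values mirror each other (0.049 and -0.049 for parental 1 with line 1), so they cannot decide whether the numbers pair samples. The block moved all calls from 33 to 7 in edited against parental cells. It moved them from 318 to 2272 in line 1 and from 1057 to 3887 in line 2 against parental cells. Number 3 marks parental 3 alone, so the block also takes that library out of these comparisons. Leaving out parental 3 without the block gave 30, 931 and 1848 calls. With 3 groups and the mean of the lines, edited against parental cells had 619 calls. For single mRNAs and rRNAs against parental cells signs turned in 10 cases, the cause not tested: MT-RNR1 in edited cells without parental 1 (-0.03), parental 2 (-0.08) or line 2 replicate 1 (-0.12); in line 1 with the block (0.10) or without parental 3 (0.11); in line 2 without its replicate 1 (-0.21); MT-RNR2 in line 2 without parental 3 (0.01) or its replicate 2 (0.14); MT-ND6 in line 1 without parental 1 (-0.06) or its replicate 2 (-0.46). With each library left out, ranges were -0.12 to 0.22 for MT-RNR1 in edited cells, -0.19 to 0.11 in line 1 and -0.21 to 0.40 in line 2, -0.40 to 0.14 for MT-RNR2 in line 2, and -0.46 to 0.60 for MT-ND6 in line 1. In line 2 against line 1 both rRNAs, positive with all libraries, were negative without line 2 replicate 1 (median -0.12). Of the 13 tRNAs tested in edited cells, 10 were positive, and 7 with the block or without line 2 replicate 1. tRNA counts and the unknown strand setting limit MT-ND6 and the tRNAs.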
